A study of Mus musculus with 18 samples.

Results

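ABC transporters are membrane proteins that use ATP to move lipids, sterols, heme precursors, drugs, conjugates and peptides across membranes. They are grouped by sequence into subfamilies A to G. In fat cells the family is known for cholesterol efflux at the cell surface and for fatty acid import into peroxisomes, and in marrow for heme synthesis, drug efflux in stem cells and phospholipid transport. The genes described here were those whose symbol begins with Abc, a subfamily letter from a to g and a number, and which the array's annotation named alone on a probe set. This gave 48 genes of the 19938 that could be named so, 16 of subfamily A, 9 of B, 10 of C, 3 of D, 1 of E, 3 of F and 6 of G. They were covered by 49 probe sets, since Abcb5 had a pair, and of that pair the one with the higher mean over all arrays was used.

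RNA came from male C57BL/6J mice aged 6, 14 or 18 months and fed standard chow, with no other treatment. Bone marrow adipocytes were floated from flushed femur and tibia marrow after red cell lysis, and epididymal adipocytes, labelled as peripheral, were floated from collagenase-digested fat of the same mice. Each of the 6 groups held 3 arrays, and each array a pool of RNA, since 6 to 10 animals per group were combined into 3 preparations, so the p-values measure the spread between pools. Values are log2 expression as deposited, and a difference of 1 on this scale is a fold of 2.

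Expression was compared between the cell types over the 3 ages and at each age, and between ages within each cell type. The 6-month bone marrow arrays scattered most, with a median SD per probe set of 0.22 against 0.097 to 0.14 in the other groups, and their replicate 1 had the lowest array weight, 0.187. The marrow cells were not sorted. Bone marrow had lower levels of all 9 measured markers of mature adipocytes (median difference -6.11). Their summed level lay between 9.65 and 10.65 (log2) on the bone marrow arrays and between 15.37 and 15.76 on the epididymal arrays. Lep, the leptin gene, ran from 3.98 to 5.59 in bone marrow and from 12.66 to 13.00 in epididymal cells. All 10 neutrophil markers (median 6.07), all 7 erythroid markers (4.31) and all 6 platelet markers (2.90) were higher in bone marrow, as were 7 of 9 B lineage markers (2.54, with 1 lower) and 6 of 9 macrophage markers (1.46). By contrast 8 of 10 fibroblast and pericyte markers (-2.89) and 6 of 8 endothelial markers (-1.78) were lower. The medians of these lists kept their sign at each age except for the macrophage markers, which were 6 higher and 1 lower at 6 months (median 1.51), 1 higher and 2 lower at 14 months (-0.55) and 9 of 9 higher at 18 months (3.10). The part of these lists in the differences between the cell types was not tested. In such bulk RNA, fewer cells of a type and less RNA per cell cannot be told apart.

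Of the 48 ABC genes, 21 (43.8%) differed between the cell types over the 3 ages at an adjusted p under 0.05 and a fold of 2, against a background of 21.8% of the 23410 probe sets tested. Bone marrow was higher for 8 genes (background in that direction 10.2%) and lower for 13 (background 11.6%). The higher genes included Abca13, Abcb4, Abcb10, Abca7 and 3 of 6 members of subfamily G. The lower genes included the peroxisomal Abcd2 and Abcd3, the cholesterol exporter Abca1, both P-glycoprotein genes and a row of neighbouring A genes. The median difference was -0.20 over the 48 genes and -0.020 over all probe sets. With the p limit alone 33 genes passed, 9 higher and 24 lower, where 58.1% of all probe sets passed. When 57 ribosomal protein genes were set equal between arrays, the median of all probe sets moved by -0.69 and the calls became 7 higher and 21 lower, with Abcc4 falling to 0.36. This scaling shifted every probe set by the same amount. The share of all probe sets called under it was not counted, so these calls have no background.

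**Figure D1:**
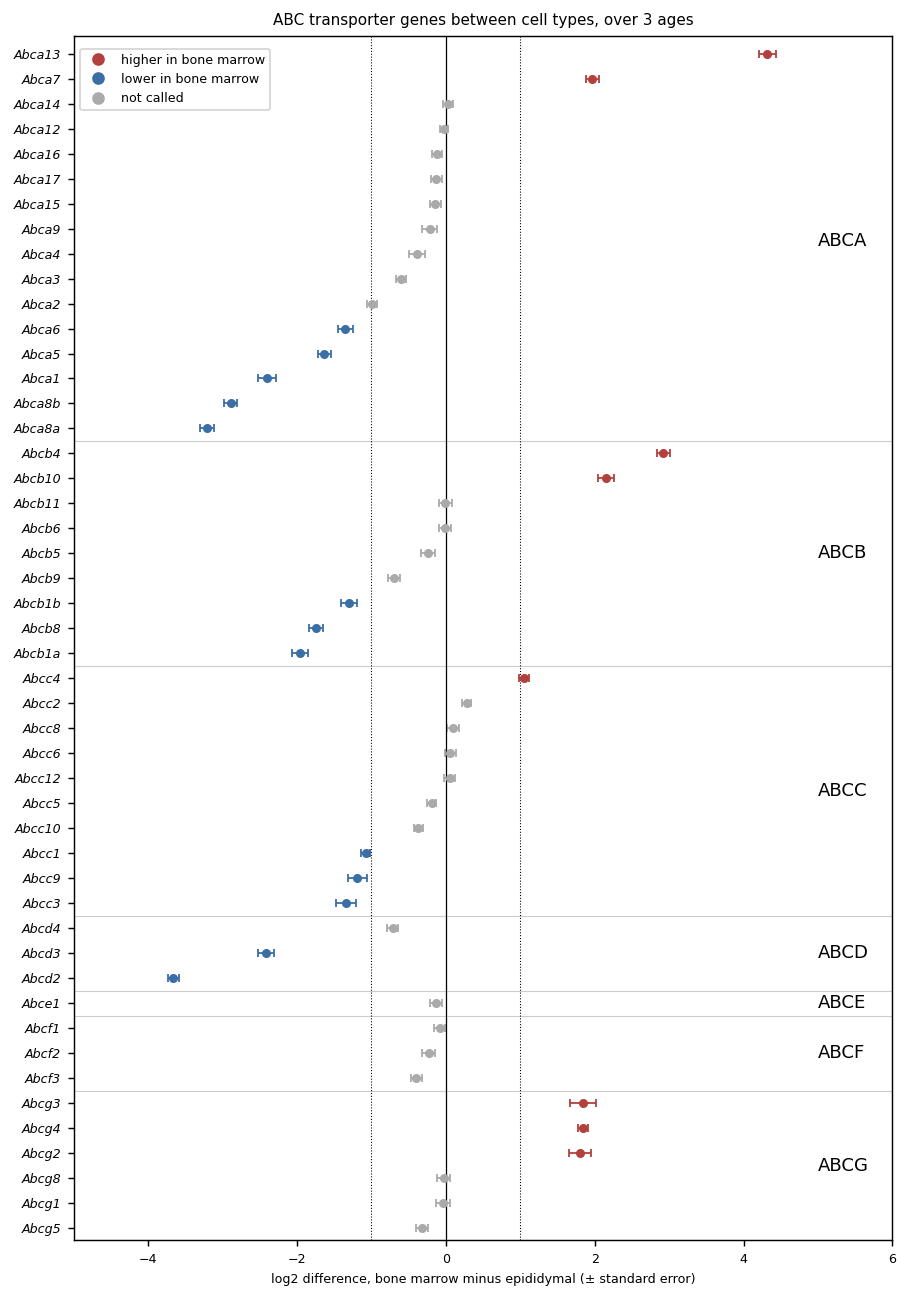
Log2 difference, bone marrow minus epididymal adipocytes over 3 ages, for the 48 ABC genes by subfamily (points, estimate; bars, standard error; dotted lines, a fold of 2; coloured, adjusted p under 0.05 and past that fold). Abca13 lies farthest to the right at 4.32 and Abcd2 farthest to the left at -3.66, and no member of subfamilies E and F passes the fold limit.

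The arrays of the cell types did not overlap for 22 of the 48 genes, which was the case for 27.6% of all probe sets. For 7 genes all 9 bone marrow arrays lay above all 9 epididymal arrays (background 12.4%), and for 15 all lay below (15.3%). For 14 genes the highest group mean was below 5.99, the median of all values tested, and at such levels the arrays resolve differences less well.

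Abcb4 encodes the transporter that moves phosphatidylcholine to the outer leaflet of the bile canaliculus membrane in liver. It was read by 1 probe set (Entrez gene 18670). In bone marrow its values were 8.34, 8.73 and 8.57 at 6 months, 7.94, 8.18 and 8.07 at 14 months and 9.28, 9.35 and 9.20 at 18 months. In epididymal cells they were 5.55, 5.14 and 5.25, then 5.51, 5.01 and 5.57, then 6.32, 6.51 and 6.50. The lowest bone marrow array lay above the highest epididymal array, and in both cell types the 18-month arrays lay above all younger ones. The difference over the ages was 2.92 (SE 0.086, 95% interval 2.74 to 3.10, adjusted p = 3.67e-16), a fold of 7.57. At the single ages it was 3.23 (adjusted p = 1.39e-12), 2.70 (1.89e-11) and 2.83 (6.84e-12). With ribosomal protein genes set equal it was 2.23. The epididymal group means at 6 and 14 months, 5.32 and 5.37, lay below the 5.99 named above. The exact size of the difference at these ages and over the ages is therefore less well resolved. Among 16 phospholipid flippases and scramblases outside the family 4 were higher and 3 lower (median -0.25), the largest being Atp9a at -4.90 (adjusted p = 4.30e-17), Atp8b4 at 4.24 (6.67e-15) and Plscr1 at 2.48 (1.13e-12).

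The P-glycoprotein genes Abcb1a and Abcb1b, drug exporters of the cell surface, went the other way. Abcb1a ranged from 4.90 to 6.62 in bone marrow (median 6.21) and from 7.65 to 8.41 in epididymal cells (median 8.005), a difference of -1.96 (SE 0.109, adjusted p = 5.00e-12). Abcb1b ranged from 5.30 to 6.43 (median 6.22) against 6.96 to 7.73 (median 7.29), a difference of -1.31 (SE 0.110, adjusted p = 2.70e-09). Neither gene's arrays overlapped between the cell types. The 3 genes have similar sequences, and whether their probes share signal was not tested.

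In the reference order (GRCm38.p6, RefSeq) Abcb1a, Abcb1b and Abcb4 follow each other on chromosome 5 with no other protein-coding gene between them. Their promoters are shown because these neighbours differed in opposite directions. The windows are the 250 bases before the gene start, chr5:8566841-8567090, chr5:8797897-8798146 and chr5:8893471-8893720, all on the plus strand. Capitals mark CCAAT (the CCAAT box) or GGGCGG (the GC box), read on either strand.
Abcb1a: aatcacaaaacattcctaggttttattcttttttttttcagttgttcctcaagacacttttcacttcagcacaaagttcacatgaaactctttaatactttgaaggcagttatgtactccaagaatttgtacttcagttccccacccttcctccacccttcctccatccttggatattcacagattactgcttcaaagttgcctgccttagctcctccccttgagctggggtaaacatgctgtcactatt
Abcb1b: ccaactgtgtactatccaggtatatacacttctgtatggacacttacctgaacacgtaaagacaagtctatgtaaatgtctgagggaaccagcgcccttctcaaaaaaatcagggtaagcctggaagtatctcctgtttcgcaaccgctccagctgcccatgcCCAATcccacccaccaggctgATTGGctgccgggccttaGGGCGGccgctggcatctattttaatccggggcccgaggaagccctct
Abcb4: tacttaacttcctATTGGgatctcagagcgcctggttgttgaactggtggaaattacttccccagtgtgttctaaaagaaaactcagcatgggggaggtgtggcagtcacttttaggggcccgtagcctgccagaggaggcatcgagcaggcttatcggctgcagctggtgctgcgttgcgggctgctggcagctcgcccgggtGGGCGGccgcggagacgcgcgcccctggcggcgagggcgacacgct
The Abcb1a window held none of the 5 motifs searched on both strands (CCAAT for the CCAAT box, GGGCGG for the GC box, TATAAA for the TATA box, CACGTG for the E-box, and AGATAA for a GATA site), the Abcb1b window held CCAAT 2 times and GGGCGG once, and the Abcb4 window held each of those once. Over all 32851 windows of this length, 33.8% held CCAAT, 32.7% GGGCGG, 12.4% TATAAA, 6.0% CACGTG and 10.0% AGATAA. GC content was 40.4%, 52.8% and 61.6%, against a median of 52.4% over all windows.

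Other B genes sit in mitochondria. Abcb10, an inner membrane protein needed for heme synthesis in red cell precursors, ranged from 8.79 to 9.95 in bone marrow (median 9.35) and from 6.80 to 7.61 in epididymal cells (median 7.15), a difference of 2.15 (SE 0.107, adjusted p = 9.00e-13). Abcb8, another mitochondrial transporter, linked to iron, ranged from 6.31 to 7.07 (median 6.64) against 7.95 to 8.75 (median 8.50), a difference of -1.74 (SE 0.093, adjusted p = 2.39e-12). Neither overlapped, and both kept their direction at every age. Abcb6, a porphyrin transporter, did not pass over the ages at -0.012 (95% interval -0.19 to 0.17), but its values at the single ages were -0.52, -0.018 and 0.50. Among 19 genes of heme and iron-sulfur handling, 8 were higher in bone marrow and 2 lower (median 0.95), led by Alas2, the first enzyme of erythroid heme synthesis, at 5.04 (adjusted p = 1.11e-14), the iron importer Slc25a37 at 4.54 (1.11e-16) and Cpox, a later enzyme of the pathway, at 3.57 (1.40e-14). Erythroid markers summed to between 13.56 and 14.60 on the bone marrow arrays and between 9.43 and 10.95 on the epididymal arrays.

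**Figure D2:**
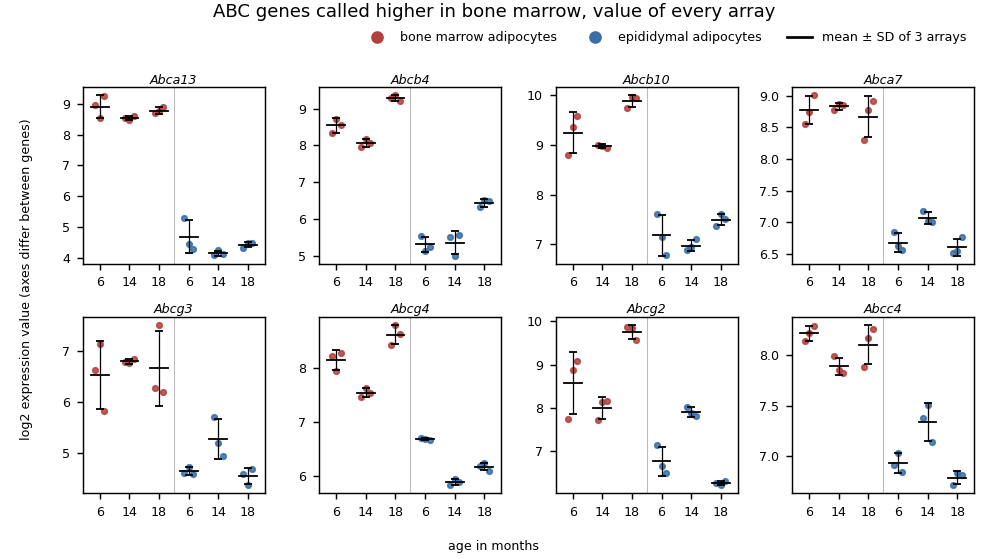
Log2 expression on each array (points) by age in months for the 8 ABC genes called higher in bone marrow, with the mean and SD of 3 arrays. The cell types overlap only for Abcg2, where epididymal arrays reach 8.03 and bone marrow arrays go down to 7.71.

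The peroxisomal subfamily D, which carries activated fatty acids into peroxisomes, was lower in bone marrow for 2 of 3 genes. Abcd2, which takes very long and unsaturated chains, ranged from 8.63 to 9.05 in bone marrow (median 8.81) and from 12.07 to 12.78 in epididymal cells (median 12.49). The difference of -3.66 (SE 0.072, adjusted p = 1.13e-18) was a fold of 12.7. Abcd3, the most abundant protein of the peroxisome membrane in liver, ranged from 6.67 to 7.77 (median 7.51) against 9.32 to 10.08 (median 9.91), a difference of -2.42 (SE 0.109, adjusted p = 1.93e-13). Both were separated by more than 1 unit on every array. Abcd4, a lysosomal member that takes part in vitamin B12 handling, differed by -0.72 and stayed under the fold limit. Of 20 genes of peroxisome import and fatty acid oxidation, 11 were lower and 0 higher (median -1.10). Pex11a, a peroxisome division gene, differed by -4.12 (adjusted p = 1.88e-18), the β-oxidation enzyme Hsd17b4 by -3.58 (2.77e-16) and the thiolase Acaa1b by -2.84 (2.08e-10).

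Within subfamily A, 2 genes were higher in bone marrow and 5 lower. Abca13, which encodes one of the largest proteins of the family, ranged from 8.46 to 9.25 in bone marrow (median 8.69) and from 4.09 to 5.31 in epididymal cells (median 4.33). The difference of 4.32 (SE 0.116, adjusted p = 9.50e-17) was the largest estimate of the 48 genes, but the epididymal group means of 4.16 to 4.69 lay below the 5.99 named above, so its exact size is less well resolved. The highest epididymal array, replicate 1 at 6 months, also had the highest mean of the neutrophil markers, 8.68 against 5.36 and 5.25 on its sister arrays, and without it the difference was 4.42. Abca7, a lipid exporter that takes part in phagocytosis, ranged from 8.30 to 9.003 (median 8.78) against 6.51 to 7.18 (median 6.76), a difference of 1.97 (SE 0.086, adjusted p = 1.13e-13). No arrays overlapped for either gene.

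Abca1, which loads cholesterol onto apolipoprotein A-I, ranged from 7.73 to 8.79 in bone marrow (median 8.51) and from 10.52 to 11.09 in epididymal cells (median 10.82), a difference of -2.40 (SE 0.115, adjusted p = 5.16e-13). Its partner in cholesterol efflux, Abcg1, gave no call at -0.042 (95% interval -0.24 to 0.16, adjusted p = 0.740). Of 20 genes of cholesterol efflux and the LXR pathway, 9 were lower and 1 higher (median -0.72). Apoc1, an apolipoprotein, differed by -3.95 (adjusted p = 3.82e-12), Nr1h3, the LXR alpha receptor, by -2.66 (5.16e-13) and Srebf1, a lipogenic transcription factor, by -2.35 (9.99e-16).

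The remaining lower A genes are neighbours. On chromosome 11 the reference lists Abca8b, Abca8a, Abca9, Abca6 and Abca5 in this order with no other protein-coding gene between them. Abca8a, a surface protein that exports lipids and drug conjugates, ranged from 5.27 to 6.33 in bone marrow (median 5.94) and from 8.36 to 10.23 in epididymal cells (median 8.64), a difference of -3.21 (SE 0.093, adjusted p = 2.98e-16). Abca8b ranged from 3.45 to 3.97 (median 3.82) against 5.79 to 7.41 (median 6.67), a difference of -2.89 (SE 0.085, adjusted p = 3.65e-16). Neither gene had a bone marrow array that reached the epididymal range, and Abca8b reached no more than 3.97 in bone marrow, among the dim probe sets. Abca5, a lysosomal member, differed by -1.63 (SE 0.086, adjusted p = 2.24e-12) and Abca6 by -1.35 (SE 0.098, adjusted p = 2.74e-10). Abca9 did not pass at -0.22 (95% interval -0.43 to -0.0076, adjusted p = 0.0714), with -1.78 at 14 months and 1.00 at 18 months.

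**Figure D3:**
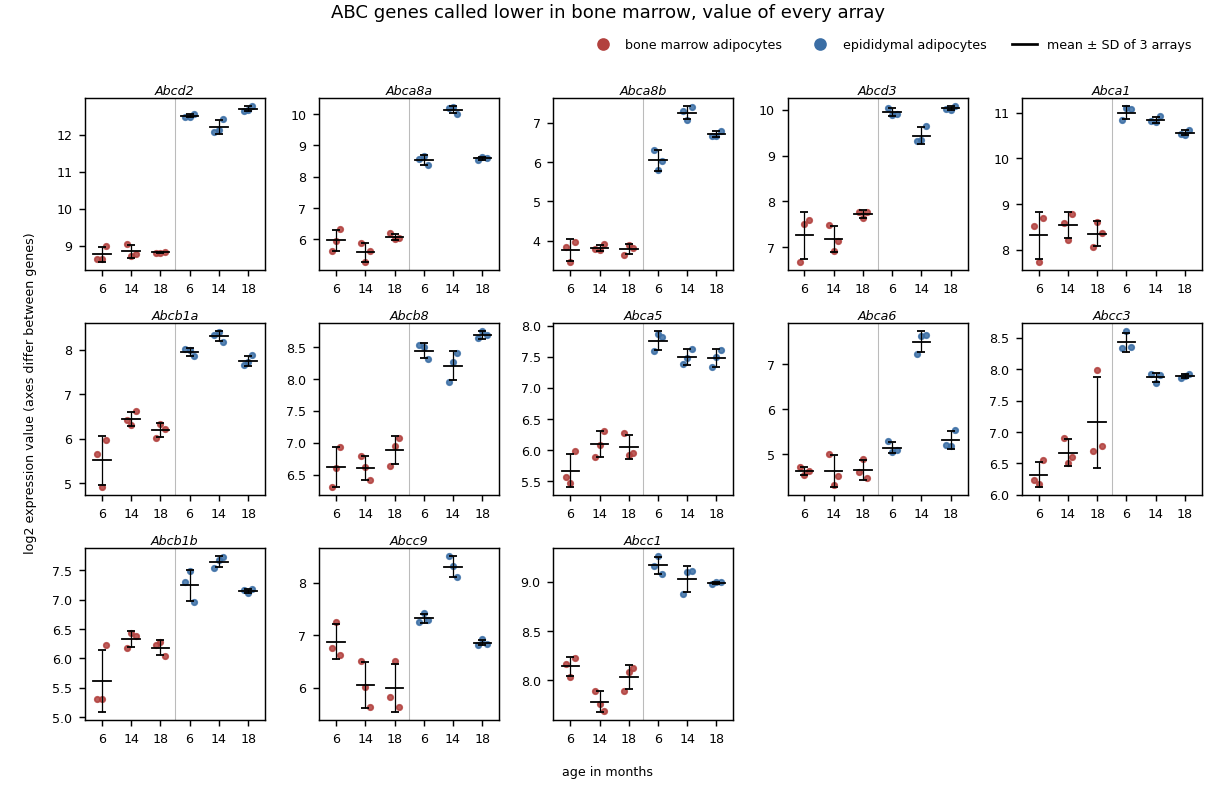
Log2 expression on each array (points) by age in months for the 13 ABC genes called lower in bone marrow, with the mean and SD of 3 arrays. Abca8a, Abca8b, Abca6, Abcc9, Abcb1a and Abcb1b have their highest epididymal values at 14 months, up to 10.23 for Abca8a.

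Promoter windows of 250 bases are printed for these genes because 4 of the 5 rose in epididymal cells from 6 to 14 months and Abca5 was not called there. At 18 months only Abca8b was called above its 6-month level, and Abca9 was below it. They lie at chr11:109995846-109996095 (Abca8b), chr11:110095938-110096187 (Abca8a), chr11:110168154-110168403 (Abca9) and chr11:110337717-110337966 (Abca5), GRCm38.p6, all on the minus strand and written 5′ to 3′ along the gene. Capitals mark GGGCGG, the GC box, or CACGTG, the E-box, on either strand.
Abca8b: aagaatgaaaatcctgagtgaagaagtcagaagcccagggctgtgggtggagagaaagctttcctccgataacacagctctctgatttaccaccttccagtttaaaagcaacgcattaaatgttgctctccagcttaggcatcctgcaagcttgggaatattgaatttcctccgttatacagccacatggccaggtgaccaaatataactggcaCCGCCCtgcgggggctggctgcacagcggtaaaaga
Abca8a: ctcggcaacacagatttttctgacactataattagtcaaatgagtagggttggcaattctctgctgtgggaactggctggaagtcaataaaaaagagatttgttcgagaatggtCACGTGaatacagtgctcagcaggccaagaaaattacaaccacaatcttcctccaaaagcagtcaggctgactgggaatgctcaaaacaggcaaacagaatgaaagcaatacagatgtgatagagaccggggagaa
Abca9: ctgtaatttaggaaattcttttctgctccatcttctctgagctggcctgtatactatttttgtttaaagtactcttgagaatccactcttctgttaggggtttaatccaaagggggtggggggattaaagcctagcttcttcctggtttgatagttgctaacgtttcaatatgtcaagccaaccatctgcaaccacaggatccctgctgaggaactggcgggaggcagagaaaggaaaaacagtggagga
Abca5: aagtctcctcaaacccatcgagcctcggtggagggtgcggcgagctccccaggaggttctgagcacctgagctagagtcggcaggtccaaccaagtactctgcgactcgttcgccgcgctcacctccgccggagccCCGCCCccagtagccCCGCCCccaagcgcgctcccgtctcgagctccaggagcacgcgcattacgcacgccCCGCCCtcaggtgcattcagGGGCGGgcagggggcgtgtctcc
The Abca5 window held GGGCGG 4 times and had a GC content of 69.2%. The other 3 had 48.8%, 43.2% and 44.4%, with 1 GGGCGG in Abca8b, 1 CACGTG in Abca8a and none of the 5 motifs in Abca9.

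Subfamily C holds conjugate exporters and sulfonylurea receptors, and 1 of its 10 genes was higher and 3 were lower. Abcc4, an exporter of cyclic nucleotides and prostaglandins, ranged from 7.82 to 8.29 in bone marrow (median 8.14) and from 6.71 to 7.51 in epididymal cells (median 6.91), a difference of 1.05 (SE 0.069, adjusted p = 6.04e-11). Abcc1, which exports glutathione conjugates and leukotriene C4, ranged from 7.69 to 8.23 (median 8.04) against 8.88 to 9.26 (median 9.09), a difference of -1.08 (SE 0.062, adjusted p = 7.43e-12). The arrays of these genes did not overlap between the cell types, and both lay close to the fold limit.

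For Abcc3, an exporter of glucuronides and bile salts, bone marrow ranged from 6.18 to 7.98 (median 6.60) and epididymal cells from 7.78 to 8.60 (median 7.92), a difference of -1.35 (SE 0.133, adjusted p = 3.07e-08). Abcc9, a sulfonylurea receptor found in vascular mural cells, ranged from 5.63 to 7.26 (median 6.51) against 6.82 to 8.50 (median 7.30), a difference of -1.19 (SE 0.127, adjusted p = 9.17e-08). Both overlapped, Abcc3 through a single 18-month bone marrow array. Fibroblast and pericyte markers summed to between 10.11 and 12.18 in bone marrow and between 14.25 and 15.15 in epididymal cells. Of 4 channel genes listed beside the sulfonylurea receptors, 1 was higher, Kcnj5 at 1.48 (adjusted p = 2.44e-07), and 0 were lower (median 0.089). Of 17 partners in xenobiotic and organic anion handling, 6 were higher and 7 lower (median -0.21), with the glutathione transferases Gsta4 at -3.19 (adjusted p = 1.16e-15) and Gstt1 at -2.13 (5.29e-15) and glutathione reductase Gsr at 2.47 (6.75e-17).

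In subfamily G, whose proteins work as pairs, 3 of 6 genes were higher in bone marrow and 0 lower. Abcg4, known for sterol efflux in brain, ranged from 7.47 to 8.78 in bone marrow (median 8.22) and from 5.84 to 6.70 in epididymal cells (median 6.20), a difference of 1.84 (SE 0.065, adjusted p = 4.95e-15). Abcg3, a rodent gene close to Abcg2, ranged from 5.82 to 7.51 (median 6.75) against 4.36 to 5.70 (median 4.67), a difference of 1.84 (SE 0.176, adjusted p = 1.87e-08). Neither overlapped. Abcg2, which exports drugs and porphyrins and marks the side population of stem cells, ranged from 7.71 to 9.86 (median 8.88) against 6.22 to 8.03 (median 6.66), a difference of 1.80 (SE 0.143, adjusted p = 1.15e-09). Its arrays overlapped at 14 months. The sterolin genes Abcg5 (-0.33) and Abcg8 (-0.028) stayed under the fold limit.

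Subfamilies E and F have no membrane-spanning part and act on ribosomes. Abce1, a ribosome recycling factor, differed by -0.13 (95% interval -0.30 to 0.047), Abcf1 by -0.082, Abcf2 by -0.23 and Abcf3 by -0.40, none of them past the fold limit. Among 9 of their translation partners 0 were called in either direction (median -0.082), and 4 passed the p limit alone, all lower.

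The calls at the single ages were 20 genes at 6 months (background 23.1%), 20 at 14 months (21.4%) and 17 at 18 months (23.8%). Of these 8, 6 and 9 were higher (background 11.4%, 9.91% and 10.9%) and 12, 14 and 8 lower (11.8%, 11.5% and 12.9%). Abcg2 differed by 1.81 at 6 months, 0.10 at 14 months (adjusted p = 0.788) and 3.49 at 18 months. Abcc9 differed by -0.44 (adjusted p = 0.114), -2.26 and -0.87. The remaining called genes kept their direction at all 3 ages, apart from Abca9. At 6 months the call of Abcc1 (-1.03) fell below a fold of 2 without replicate 2 of either group. At 18 months the call of Abca9 (1.00) did so without replicate 2 of bone marrow or replicate 1 of epididymal cells, with repeated quantile normalization (0.83) and with array weights (0.94), and equal ribosomal protein genes brought it to 0.35 (adjusted p = 0.0773). The same scaling took Abcc4 (0.43), Abcg2 (0.95) and Abcg4 (0.60) at 6 months, Abcg3 (0.96) at 14 months and Abcc4 (0.67) at 18 months below a fold of 2.

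Within a cell type each older age was compared with 6 months, and these comparisons share the 6-month arrays. In epididymal cells 12 of 48 genes (25%) changed from 6 to 14 months, 7 up (background 10.2%) and 5 down (7.51%), against a background of 17.7% in all. Abca9 rose from 6.49, 6.55 and 6.47 to 9.03, 8.92 and 8.77, by 2.40 (SE 0.173, adjusted p = 1.21e-08). Abca6, a little studied gene, rose from 5.30, 5.06 and 5.09 to 7.23, 7.63 and 7.65, by 2.36 (SE 0.169, adjusted p = 1.15e-08). Abca8a rose from 8.58, 8.66 and 8.36 to 10.19, 10.23 and 10.02, by 1.61 (SE 0.162, adjusted p = 7.54e-07). Every 14-month array lay more than 1 unit above every 6-month array for these 3 genes. Abca8b rose by 1.21 (adjusted p = 8.29e-06), Abcg2 by 1.14 (0.00277), Abcc9 by 0.98 (0.00362) and Abcc4 by 0.41 (0.0218), while Abca5 gave -0.26 and was not called.

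The falls at 14 months were smaller. Abcg4 fell from 6.70, 6.68 and 6.67 to 5.84, 5.96 and 5.91, by 0.78 on the log2 scale (SE 0.112, adjusted p = 5.46e-05). Abcb6 fell from 8.27, 8.21 and 8.03 to 7.24, 7.31 and 7.79 (log2 change -0.72, SE 0.150, adjusted p = 0.00192). Abca2, an endosomal sterol transporter, fell from 8.52, 8.72 and 8.71 to 8.001, 8.14 and 8.09 (log2 change -0.57, adjusted p = 6.72e-04). None of these 3 genes overlapped between the ages. The lysosomal peptide transporter Abcb9 (-0.55) and the skin lipid transporter Abca12 (-0.36) also fell. The calls of Abca12 and Abcc4 were lost when single arrays were left out, Abca12 without 6-month replicate 2 (-0.27), 14-month replicate 1 (-0.35) or 14-month replicate 3 (-0.33), and Abcc4 without 6-month replicate 1 (0.40), 6-month replicate 3 (0.37), 14-month replicate 1 (0.39) or 14-month replicate 2 (0.32). The Abcc4 call was also lost with repeated quantile normalization (0.34), arrays centred on the median (0.29) and ribosomal protein genes set equal (0.18, adjusted p = 0.335). In a fit of only the 6- and 14-month epididymal groups both calls were lost as well, Abca12 with an adjusted p of 0.0611 and Abcc4 with 0.0510.

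Markers of other cells moved in the same 14-month epididymal arrays. All 9 macrophage markers rose (median 2.40), and their summed level went from 11.24 to 11.86 in the 6-month arrays to 13.66 to 14.12 in the older ones. Of 10 fibroblast and pericyte markers 8 rose (median 1.04), with sums of 14.25 to 14.29 and then 14.91 to 15.15. Of 8 endothelial markers 5 rose (median 0.81), with sums of 11.82 to 11.97 and then 12.41 to 12.52, and 6 of 9 B lineage markers rose, while 3 of 10 neutrophil and 2 of 7 erythroid markers fell. Both falling lists had their highest 6-month mean on replicate 1, at 8.68 for neutrophil and 7.61 for erythroid markers. The other 6-month arrays gave 5.36 and 5.25 for neutrophil and 6.21 and 6.38 for erythroid markers. The 14-month means ran from 4.77 to 5.08 and from 5.94 to 6.35. The part of all these markers in the rises of the A genes, Abcg2 and Abcc9 was not tested.

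**Figure D4:**
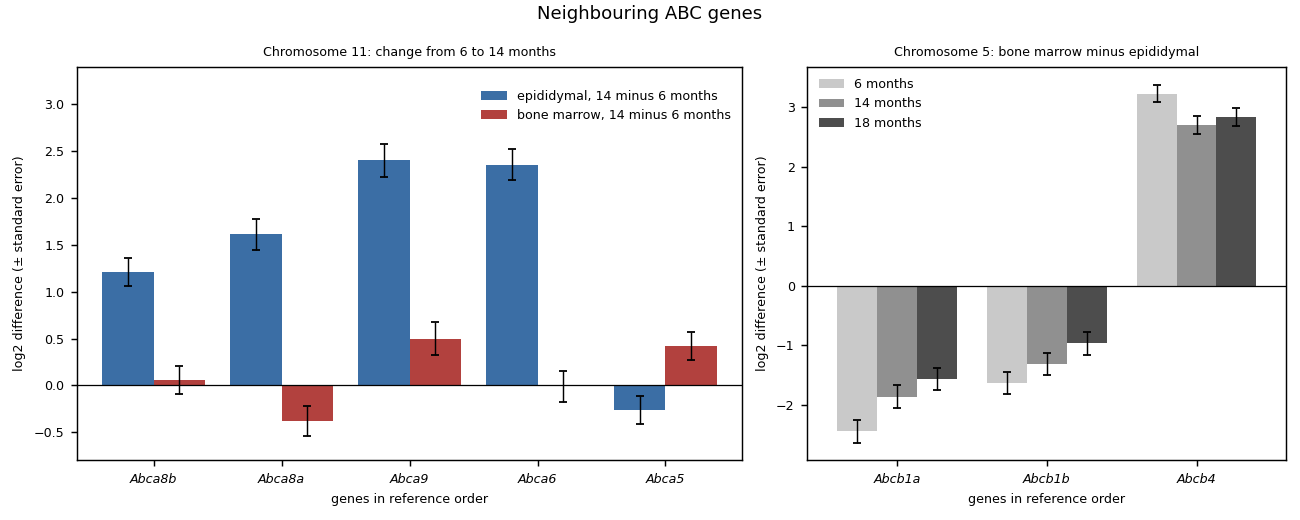
Left, log2 change from 6 to 14 months for the 5 neighbouring A genes of chromosome 11 in epididymal and bone marrow cells. Right, log2 difference between bone marrow and epididymal cells at each age for the 3 neighbouring B genes of chromosome 5. Bars start at 0 and carry standard errors, with 3 arrays per group. Epididymal bars reach 2.40 for Abca9 and go below 0 for Abca5, and Abcb4 stands at 2.70 to 3.23 beside 2 genes below 0.

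From 6 to 18 months 7 genes (14.6%) changed in epididymal cells, 3 up (background 8.22%) and 4 down (8.01%), near the background of 16.2% in all. Abcb4 rose by 1.13 (SE 0.149, adjusted p = 4.13e-05) with the arrays given above, and Abca8b rose from 6.32, 5.79 and 6.04 to 6.66, 6.67 and 6.80 by 0.66 (adjusted p = 0.00467). The 6-month mean of Abcb4, 5.32, lay below 5.99, so the exact size of its rise is less well resolved. The retinal lipid flippase Abca4 went from 4.55, 4.76 and 4.71 to 4.82, 5.27 and 5.75, a change of 0.61 (adjusted p = 0.0325). Abcb4 and Abca8b did not overlap between the ages, nor did the dim Abca4. Abca2 fell to 8.21, 8.05 and 8.02 (log2 change -0.56, adjusted p = 0.00134). Abca9 fell to 5.90, 5.98 and 6.03 (log2 change -0.53, adjusted p = 0.0422), below its 6-month arrays. Abcg4 fell to 6.20, 6.24 and 6.11 (log2 change -0.50, adjusted p = 0.00482), and Abca12 by 0.34.

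Calls at 18 months of Abca4 (5 arrays), Abca9 (9 arrays) and Abca12 (3 arrays) were each lost when 1 of those arrays was left out. Abca4 dropped to 0.37 without 18-month replicate 3 (adjusted p = 0.184), Abca9 gave -0.50 without 18-month replicate 1 (0.137) and Abca12 gave -0.25 without 6-month replicate 2 (0.141). With repeated quantile normalization Abca9 gave -0.39 (adjusted p = 0.130) and Abca12 -0.17 (0.304). In these arrays 8 of 9 macrophage markers fell (median -1.56) and 7 of 8 endothelial markers fell (-1.04), with 1 fibroblast marker up and 2 down. Macrophage sums lay between 9.98 and 10.12 and endothelial sums between 10.57 and 10.71. Their part in the age changes was not tested.

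In bone marrow 8 genes (16.7%) changed from 6 to 14 months, 4 up (background 5.08%) and 4 down (3.58%), against a background of 8.66% in all. Abcb1a rose from 5.66, 4.90 and 5.98 to 6.42, 6.30 and 6.62, by 0.93 (SE 0.189, adjusted p = 0.00431). Abcb1b rose from 5.30, 5.32 and 6.23 to 6.18, 6.43 and 6.38, by 0.72 (SE 0.190, adjusted p = 0.0236), with 1 younger array inside the older range. Abcg1 went from 8.55, 9.27 and 9.22 to 9.43, 9.57 and 9.67, by 0.54 (adjusted p = 0.0479), with 1 low younger array, and by 0.31 without that 6-month replicate 1 (adjusted p = 0.197). Abcc10, a conjugate exporter, rose by 0.46 (adjusted p = 0.00850). Abcc9 fell from 6.76, 7.26 and 6.62 to 6.51, 6.01 and 5.63 (log2 change -0.83, SE 0.221, adjusted p = 0.0235). Abcg4 fell from 8.22, 7.93 and 8.26 to 7.47, 7.62 and 7.53 (log2 change -0.60, SE 0.112, adjusted p = 0.00252). Abcc2, the canalicular conjugate pump, fell from 5.18, 4.79 and 5.03 to 4.61, 4.64 and 4.61 (log2 change -0.38, adjusted p = 0.0436), and Abcc1 by 0.36. Both age groups were apart for Abcb1a, Abcg1, Abcc10, Abcc9, Abcg4, Abcc2 and Abcc1.

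**Figure D5:**
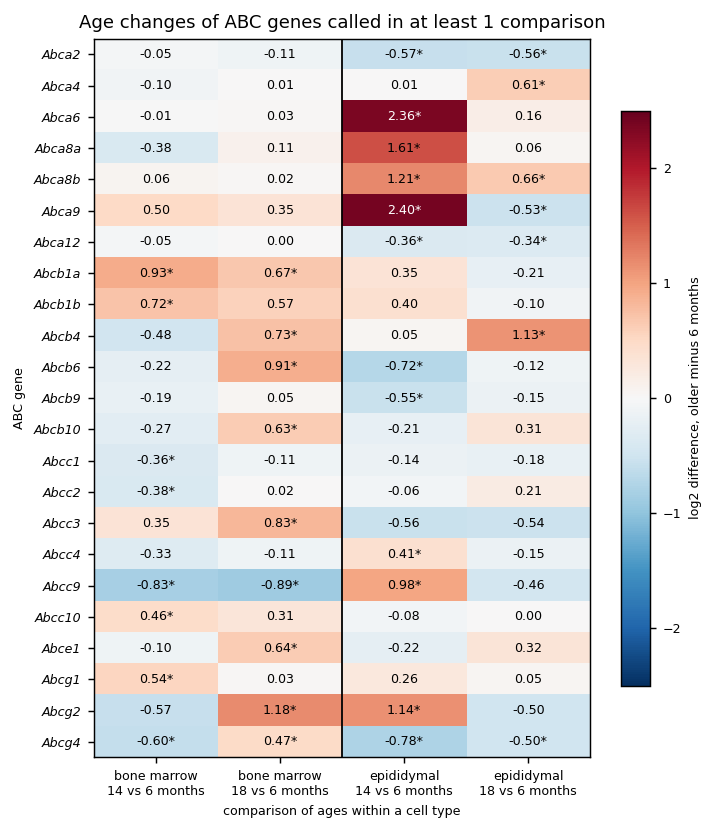
Log2 change from 6 months for the 23 ABC genes called in at least 1 of 4 age comparisons (columns), with colour from blue (fall) to red (rise) and an asterisk for an adjusted p under 0.05. The strongest cells are Abca9 (2.40) and Abca6 (2.36) in epididymal cells at 14 months.

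At 18 months 9 genes (18.8%) had changed in bone marrow, 8 up (background 3.37%) and 1 down (5.13%), against a background of 8.5% in all. Abcg2 went from 7.75, 8.88 and 9.09 to 9.86, 9.84 and 9.57, a rise of 1.18 (SE 0.247, adjusted p = 0.00740). Abcb6 rose from 7.36, 7.63 and 7.96 to 8.44, 8.66 and 8.57, by 0.91 (SE 0.150, adjusted p = 0.00167). Abcc3 rose from 6.24, 6.18 and 6.55 to 6.70, 7.98 and 6.78, by 0.83 (SE 0.231, adjusted p = 0.0323). All 18-month arrays lay above all 6-month arrays for these 3 genes, but Abcc3 gave 0.41 without 18-month replicate 2 (adjusted p = 0.111). Abcb4 rose by 0.73 (SE 0.149, adjusted p = 0.00631), Abcb1a by 0.67 (0.0331), Abce1 by 0.64 (0.0114), Abcb10 by 0.63 (0.0404) and Abcg4 by 0.47 (0.0153). Abcc9 fell to 5.83, 6.51 and 5.64 (log2 change -0.89, SE 0.221, adjusted p = 0.0181), below all its 6-month arrays.

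Beside these, 5 of 19 genes of heme and iron-sulfur handling rose in bone marrow at 18 months and 0 fell (median 0.39), among them Cpox by 0.96 (adjusted p = 0.0170). Erythroid markers summed to 13.74 to 14.06 on the 6-month arrays and to 14.57 to 14.60 on the oldest arrays, and 1 of 7 rose at the adjusted limit (median 0.68). Endothelial markers fell for 6 of 8 at both older ages (medians -0.91 and -0.72) and fibroblast and pericyte markers for 5 and 3 of 10. At 14 months 7 of 9 B lineage markers (median 0.99) and 5 of 9 macrophage markers (0.66) rose. Their part in the ABC changes was not tested.

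In a fit of only the compared groups 0 of 48 genes passed the adjusted limit at either age, where 12 at 14 months and 10 at 18 months had an unadjusted p under 0.05, and an ordinary analysis of variance over all arrays passed 5 and 6. The shares of all probe sets that passed in these fits were not counted, so these counts have no background. With each array left out in turn, Abcb1a, Abcc10 and Abcg4 held at 14 months and Abcb4, Abcb6 and Abcg2 at 18 months. At 14 months Abcb1b lost its call without 6-month replicates 1 (0.56) or 2 (0.57) or 14-month replicates 2 (0.66) or 3 (0.69), and Abcc9 without 6-month replicate 2 (-0.64) or 14-month replicates 2 (-0.81) or 3 (-0.62). Abcc1, Abcc2 and Abcg1 lost theirs without any of 8, 13 and 14 arrays. At 18 months Abcb1a lost its call without 6-month replicate 2 (0.37) or any 18-month array (0.60 to 0.76), Abcc9 without 6-month replicate 2 (-0.70) or 18-month replicates 1 (-0.81) or 3 (-0.71), Abcg4 without replicate 2 of 6 months (0.37) or of 18 months (0.39), Abce1 without 18-month replicate 2 (0.59), Abcc3 also without 6-month replicates 1 (0.79) or 2 (0.76), and Abcb10 without any of 12 arrays, down to 0.41 without 6-month replicate 1.

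Whether age changes differed between the cell types was tested by the interaction of cell type and age. It passed for 13 of 48 genes, against a background of 20.4%. The smallest p-values belonged to Abca9 (adjusted p = 7.36e-07), Abca6 (1.15e-06) and Abca8a (3.45e-06). In bone marrow Abca9 was 6.52, 6.58 and 6.79 at 6 months, 7.58, 6.76 and 7.05 at 14 months and 6.94, 7.30 and 6.67 at 18 months. Abca6 stayed between 4.32 and 5.01 there on all 9 arrays, and Abca8a between 5.27 and 6.33. Their bone marrow changes at 14 months were 0.50, -0.010 and -0.38, none of them called, against the epididymal rises of 2.40, 2.36 and 1.61. The bone marrow group means of Abca6, 4.62 to 4.66, lay below 5.99, so a change of this gene there is less well resolved. Abcg2 (adjusted p = 5.76e-06) had its lowest bone marrow group mean (8.01) and its highest epididymal one (7.91) both at 14 months, and at 18 months bone marrow rose to 9.76 while epididymal cells stood at 6.26. For Abcb4 the interaction did not pass (adjusted p = 0.164).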

How the data were processed

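Per the methods, scans of 18 Affymetrix Mouse Gene 1.0 ST arrays were turned into gcRMA values in Partek software, quantile normalized and deposited by the authors as log2 values, which were used unchanged. The legend of the study's supplementary figure names RMA instead, and which of these gave the deposited values was not tested. The genome build behind the probe set annotation is not given in the sources used here. The deposited table holds 35556 probe sets, of which 23410 name a gene and were tested, and 1621 of these name several genes. Values ran from 1.90 to 14.64 and array medians from 5.33 to 5.65. Arrays give no read depth, so their number limits the precision.

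One model with a mean per group was fitted to all arrays with limma 3.58.1 in R 4.3.3, with Benjamini-Hochberg adjustment of the p-values over all tested probe sets in each comparison. A call needed an adjusted p under 0.05 and, between cell types, a fold of 2. The code was tested on simulated data. Members, partner lists, markers and motifs were chosen with earlier results of these data known. Every member could be named, with values by array for Abcb4 and, in each subfamily and each age comparison, up to 3 called genes with the largest changes in each direction and the 3 smallest interaction p-values. Of partner lists the 3 called genes with the largest difference were named. The alternatives were another normalization, scaling to the median or to 57 ribosomal protein genes, other probe set filters, other limits, array weights, fits of only the compared groups, an ordinary analysis of variance, a replicate block and each array left out. Fits without the 6-month or the 14-month arrays were added after seeing the data. Promoters came from RefSeq (GRCm38.p6), which held windows for 38 of the 48 genes and not Abca6. No pairing of same-numbered arrays was seen, with correlations of their deviations between -0.14 and 0.15 over 9 pairs. With 3 arrays per group this cannot settle whether same-numbered pools came from the same mice.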

Additional observations from a re-analysis of the deposited data

Results flagged for a closer look

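For 13 genes the age changes differed between the cell types by the interaction test (limma, adjusted p over all probe sets). Values are bone marrow age change minus epididymal age change on the log2 scale, first at 14 and then at 18 months.

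At 14 months the epididymal cells had the greater change for Abca9, Abca6, Abca8a and Abca8b, neighbours on chromosome 11. Abca9 gave -1.90 and 0.88 (adjusted p = 7.36e-07), Abca6 -2.37 and -0.13 (1.15e-06), Abca8a -1.99 and 0.051 (3.45e-06) and Abca8b -1.15 and -0.64 (0.00207). Their neighbour Abca5 went the other way at 0.69 and 0.66 (adjusted p = 0.0364), and Abca2 did so at 0.52 and 0.44 (0.0310). In bone marrow the group means of Abca6 and Abca8b reached no more than 4.66 and 3.81, below 5.99, so changes of these genes there are less well resolved.

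Abcg2 gave -1.71 and 1.68 (adjusted p = 5.76e-06), a difference of opposite sign at the older ages, and Abcg4 gave 0.18 and 0.97 (4.37e-04). In subfamily C, Abcc9 gave -1.82 and -0.43 (adjusted p = 8.35e-04), Abcc4 -0.74 and 0.035 (0.00353), Abcc3 0.91 and 1.37 (0.0142) and Abcc10 0.54 and 0.31 (0.0357). The porphyrin transporter Abcb6 gave 0.50 and 1.02 (adjusted p = 0.00584). The calls of Abca2, Abca5 and Abcc10 were lost when any of 7, 11 and 11 single arrays was left out, with values at 14 months from 0.47 to 0.52, 0.59 to 0.70 and 0.48 to 0.55 in those fits. The call of Abcc4 was also lost with ribosomal protein genes set equal (-0.44 at 14 months, adjusted p = 0.0563), and that of Abcc3 in an ordinary analysis of variance (adjusted p = 0.0544). Abca5 was also lost in that analysis (0.0646) and with all probe sets tested (0.0578), and Abcc10 with a trended, robust variance prior (0.0644) and with the replicate block (0.0502). Abca6 and Abca8b were not tested when dim probe sets were dropped.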

How the results depend on the processing

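Of the 21 calls between the cell types over the ages, 21 held with each array left out (counts 21 to 22), 17 under every alternative other than leaving out an age, and the exceptions were Abcc4 when ribosomal protein genes were set equal and the dim Abca6, Abca8b and Abcg3 when dim probe sets were dropped. Without the 14-month or the 6-month arrays the count was 19 each. Without a fold limit it was 33, and 31 at 18 months (main 17). Left-out arrays gave 19 to 21 at 6 months, 20 at 14 months and 16 to 19 at 18 months. When ribosomal protein genes were equalised the calls were 33 at 6 months (5 higher, 28 lower; main 8 and 12), 25 at 14 months (5 and 20; main 6 and 14), 26 at 18 months (7 and 19; main 9 and 8) and 19 for epididymal cells at 14 months (6 up, 13 down; main 7 and 5), where the median of all probe sets moved by -0.22. In bone marrow that median moved by 0.072 and 0.15. No share of all probe sets was counted under this scaling, so these calls have no background. The same scaling reversed Abca14 (-0.66), Abcc2 (-0.41 over the ages and -0.41 at 6 months), Abcc6 (-0.63, and -0.30 at 18 months), Abcc8 (-0.59), Abcc12 (-0.64), Abcc4 at 14 months (-0.0094) and Abcb6 at 18 months (-0.15). Without the 14-month arrays Abca9 reversed to 0.56, and without the 6-month arrays Abcb6 to 0.24. The causes were not tested.

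The age counts moved more. Shares of all probe sets were counted in the main fit only, so the counts under the alternatives have no background. For bone marrow at 14 months (main 8) the count was 5 with arrays centred on the median (3 up, 2 down), 8 with repeated quantile normalization (3 and 5), 6 with ribosomal scaling (4 and 2), 5 in the ordinary analysis of variance, 4 with all probe sets tested, 0 with only the compared groups in the fit, 0 with a fold of 2 and 3 to 9 with an array left out. At 18 months (main 9) it was 5 with array weights, 0 with only the compared groups, 1 with a fold of 2 and 4 to 12 with an array left out. With array weights the rise of Abcb4 there was 0.64 (adjusted p = 0.0543). The counts of 0 under a fold of 2 came from changes below that limit, with 16 genes at an unadjusted p under 0.05 at 14 months. For epididymal cells at 14 months (main 12) it was 17 when centred (6 up, 11 down), 5 with a fold of 2 and 10 to 14 with an array left out. At 18 months (main 7) it was 16 with array weights, 4 with dim probe sets dropped, 12 with only the compared groups, 6 with repeated quantile normalization (4 up, 2 down), 1 with a fold of 2 and 4 to 8 with an array left out. The interaction count (main 13) was 8 with a fold of 2 and 10 to 15 with an array left out. With the replicate number as a block, the counts were 7, 8, 12 and 6 for the 4 age comparisons and 12 for the interaction. Of 5331 single-gene values, judged by adjusted p alone without the fold limit, 5069 kept their direction and side of the p limit, 232 no longer passed it, 19 newly passed it and 11 reversed. Genes that did not pass in the main fit were followed only between the cell types over the ages. All 19 new passes are from there, and new passes at single ages, with age or in the interaction are not in this tally.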

Other observations

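ABC proteins whose symbols lack the Abc root were measured too. Tap1, which loads peptides for MHC class I, differed by 1.08 between bone marrow and epididymal cells (SE 0.090, adjusted p = 2.50e-09) and its partner Tap2 by -0.33 (9.21e-04). Among 12 genes of MHC class I peptide loading, Tap1 was the 1 called higher and 0 were lower (median -0.084). The chloride channel gene Cftr differed by -0.17 (adjusted p = 0.0277).

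Over the 6 group means, the genes of 19938 whose pattern was most like that of Abcb4 were Brip1, a DNA helicase gene, with a Pearson correlation of 0.998, the replication factor gene Rfc4 (0.998), Lnpk of the endoplasmic reticulum (0.998), the DNA polymerase gene Polh (0.997) and Rpa2, a single-strand DNA binding protein (0.997). These are descriptions of 6 points that share arrays and normalization.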
